A study of Mus musculus with 4 samples.

Results

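Mitochondrial ribosomal protein genes were compared between 2 kinds of mouse granulocyte, each measured in 2 samples on Affymetrix expression arrays. These genes were taken as every probe set with a single gene symbol starting with Mrpl or Mrps and a digit. That gave 76 genes with 156 probe sets, of 18193 genes named by the array's annotation. By symbol, 47 belonged to the large subunit (Mrpl) and 29 to the small subunit (Mrps). Each gene was represented by its probe set with the highest mean, and all 76 passed the filter on low signals, as did 13139 genes in all. G-MDSC, granulocytic myeloid-derived suppressor cells, came from the spleens of female C57BL/6 mice 3.5 weeks after EL4 lymphoma cells were injected under the skin, and were selected on beads for Ly6G. Neutrophils came from the peritoneal fluid of female C57BL/6 mice given 2 injections of 12% casein, a milk protein, 16 h apart. They were collected 3 h after the second injection, depleted of F4/80-positive cells and selected for Ly6G. In both groups red blood cells were lysed and 100 ng of total RNA was labelled. Cell kind, tissue, tumour, casein and sorting steps changed together between the groups and cannot be told apart. Nothing in the labels tells whether a group's 2 samples were taken from separate mice. The p-values therefore reflect the spread between the deposited samples alone, and that spread may be technical.

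The mitochondrial ribosome makes the few proteins that the mitochondrial genome encodes, which are core subunits of the respiratory chain and of ATP synthase. Its RNAs come from mitochondrial DNA, but all of its proteins are encoded in the nucleus, made in the cytosol and imported. Many of the proteins descend from those of bacterial ribosomes, while others are found only in mitochondria. Mature neutrophils are known for relying mainly on glycolysis for energy and for their few mitochondria. Symbols do not always give a protein's place: in published structures Mrps18a and Mrps30 lie in the large subunit, and Mrps36 is now regarded as a part of the ketoglutarate dehydrogenase complex.

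The arrays had the same trimmed mean, but dim probe sets were brighter on the second neutrophil array, whose median signal was 177.9, while the other 3 had medians of 75.8 to 83.3. Its 40th percentile was 132.7, and those of the others were 45.7 to 52.6. Of 9 neutrophil markers 3 were higher in G-MDSC and 0 lower. S100a8 (53180 to 85890) and Csf3r (14880 to 27610) were bright in every array. Camp and Ltf, granule proteins made by maturing neutrophils, differed widely: Camp had signals of 30460 and 30840 in G-MDSC but 1277 and 600.4 in neutrophils, a log2 difference of 5.10 ± 0.37, and Ltf differed by 4.38. Other cell types' markers differed between the groups as well. In the macrophage list, 10 of 12 were lower and 0 higher in G-MDSC, with a summed signal of 16982 and 16997 against 44449 and 65050 in neutrophils. Of 6 mast cell markers 4 were lower and 0 higher (17611 and 21452 against 38349 and 29309). Hdc, bright in every array and not called, held 15260 and 18050 of the G-MDSC sums. The 4 lower ones differed far more than the sums, as in Cma1 (17.7 and 9.44 against 4591 and 1551). Kit lay the other way but was not called (2003 and 3146 against 1551 and 417). Of 7 markers of granulocyte precursors or of cell division 4 were higher and 0 lower (32601 and 13242 against 3296 and 2022). Those called were the granule protein genes Mpo, Elane and Prtn3 and, of the division genes, Birc5 alone. Mki67, Top2a and Cdk1 were not called (limma adjusted p = 0.138, 0.119 and 0.0519). Division genes also differed between the G-MDSC arrays, as in Mki67 (4169 and 1102 against 1245 and 591.5). Of 6 B and plasma cell markers 2 were higher and 0 lower (22236 and 15900 against 7536 and 9857). None of 3 T cell markers or 4 erythroid markers was called, and both lists were dim, with summed signals of 96.4 to 343 and 214 to 610. No marker was listed at 0. The part of these other cells in the differences below was not tested. In such bulk samples, fewer cells of a type and less RNA per cell cannot be told apart.

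Promoter sequences are shown for 5 of the genes because the members differ in direction, and they were chosen after the values were seen. Mrps6 and Mrpl52 had the lowest differences of the small and large subunits, Mrpl43 had the highest, and Mrps18a and Mrps18c are relatives with opposite signs. Each line gives the 120 bases before the annotated start site, 5′ to 3′ on the gene's strand, from RefSeq on GRCm38.p6. The positions in order are chr16:92058216-92058335 (plus strand), chr14:54426789-54426908 (plus), chr19:45006443-45006562 (minus), chr17:46110884-46111003 (plus) and chr5:100798639-100798758 (plus). Capitals mark the ETS family motif CCGGAAG, read on either strand.
Mrps6: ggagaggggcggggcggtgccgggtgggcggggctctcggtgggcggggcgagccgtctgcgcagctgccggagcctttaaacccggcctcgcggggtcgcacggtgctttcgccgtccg
Mrpl52: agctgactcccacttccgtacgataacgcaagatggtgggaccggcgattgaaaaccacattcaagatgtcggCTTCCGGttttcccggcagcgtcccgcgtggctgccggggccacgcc
Mrpl43: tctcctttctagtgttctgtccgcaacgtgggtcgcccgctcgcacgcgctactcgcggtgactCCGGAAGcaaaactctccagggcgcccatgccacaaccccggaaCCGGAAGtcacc
Mrps18a: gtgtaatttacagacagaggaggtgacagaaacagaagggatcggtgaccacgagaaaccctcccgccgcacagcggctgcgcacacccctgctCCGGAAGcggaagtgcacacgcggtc
Mrps18c: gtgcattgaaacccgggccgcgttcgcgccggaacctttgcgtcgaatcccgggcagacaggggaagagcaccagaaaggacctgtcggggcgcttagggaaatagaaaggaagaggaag

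The ETS letters stand at 2 places before the start of Mrpl43 and on the opposite strand before Mrpl52, so genes with opposite signs both carried them in this stretch. In the full window of 250 bases before and 50 after the start, 67 of the 76 members had a promoter in the table. Of these, 25 (37.3%) held the ETS letters, against 18.5% of 10566 genes tested on the arrays and 8.86% of all 32851 promoters. Mrps18a and Mrps18c were both among the 25, although the printed stretch of Mrps18c does not hold the letters. GABPA, an ETS factor, is a known activator of nuclear genes for mitochondria. The letters AAGATGGC, bound by the factor YY1, were in 12 members (17.9%), against 4.98% of the genes tested and 2.75% of all promoters. The core GCGCATGC of NRF1, another activator of such genes, was in 8 members (11.9%), against 5.57% of the genes tested and 2.71% of all promoters. The MYC E-box CACGTG was in 5 members (7.46%), against 11.2% of the genes tested and 7.15% of all promoters. Both strands were searched, and no member held more than 2 of the 4 motifs. A member or gene was counted if any of its promoters held the letters, whereas the share of all promoters counts each promoter. Over all 27025 genes with a promoter the shares were 9.93% (ETS), 3.19% (YY1), 3.05% (NRF1) and 8.09% (E-box). Among the members found lower in G-MDSC, described next, 14 had a promoter, of which 4 held the ETS letters, 3 the YY1 letters, 2 the NRF1 core and 0 the E-box. Among the other 53 members the numbers were 21, 9, 6 and 5. A match is a description of letters, not a bound site.

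**Figure D1:**
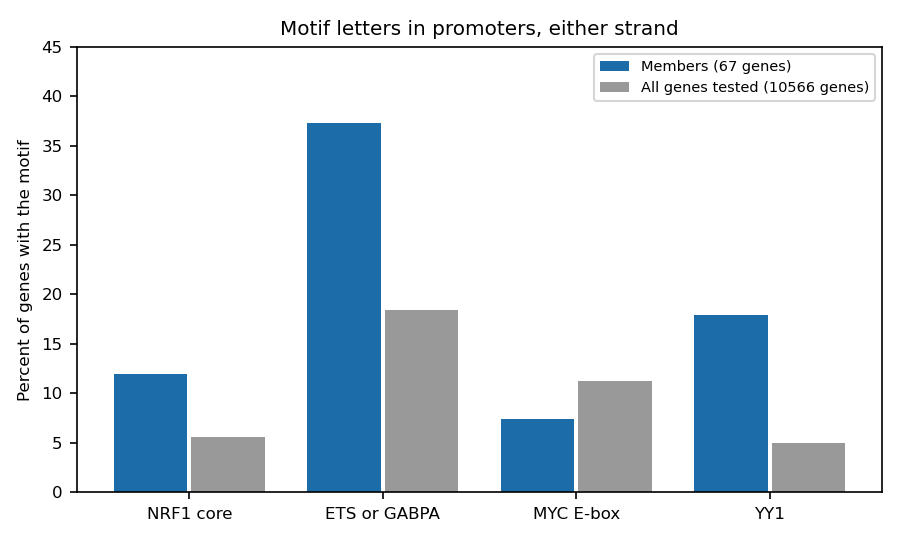
Percent of genes whose promoter window holds each of 4 motifs on either strand, for the 67 members with a promoter (blue) and for 10566 genes tested (grey). The ETS letters are in 37.3% of members against 18.5% of genes tested, and the E-box in 7.46% against 11.2%.

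Part of the mitochondrial ribosomal protein genes were called lower in G-MDSC than in neutrophils, and none was called higher in the fit reported here. A gene that was not called may still differ. By limma's moderated test with Benjamini-Hochberg adjustment over all 13139 genes, 17 of 76 members (22.4%) were lower and 0 higher in G-MDSC, at an adjusted p under 0.05. Of all genes tested, 8.05% were lower and 8.3% higher, 16.4% in either direction. At an unadjusted p under 0.05 there were 25 members. The log2 differences, G-MDSC minus neutrophils on log2(signal + 16), ran from -2.68 for Mrps6 to 0.94 for Mrpl43, with a median of -0.45 against -0.18 over all genes. Members with a difference below 0 numbered 54 (71.1%), against 57.1% of all genes. Both G-MDSC arrays lay below both neutrophil arrays for 39 members (51.3%), against 32.2% of all genes, and above them for 9 (11.8%), against 27.3%.

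The count of lower members depended on single arrays and on the variance model. Without the intensity trend 2 members (2.63%) were lower, close to the 2.52% of all genes, and without moderation 0 members and 0 of all genes were (limma; 20 members at an unadjusted p under 0.05). The count was 8 without G-MDSC replicate 1 and 6 without G-MDSC replicate 2, where 4.37% and 4.27% of all genes were lower, and 37 without neutrophils replicate 1, where 26.4% were lower. Without neutrophils replicate 2, the array that stood apart, it was 18 of 76, against 11.1% of all genes, and 16 of the 17 genes were among them. Mrpl12, Mrpl52, Mrps6, Mrps18b, Mrps25 and Mrps28 passed the threshold without each array in turn. Without neutrophils replicate 2, the genes Mrpl10, Mrpl33 and Mrpl43 were higher in G-MDSC, with differences of 1.11, 0.92 and 1.09 (limma adjusted p = 0.0043, 0.018 and 0.00501). Without neutrophils replicate 1, Mrpl43 was higher by 0.79 (limma adjusted p = 0.0305). Signals were higher in neutrophils replicate 2 than in replicate 1 for 68 members (of all genes, 62.8%), so the size of most differences varied with the neutrophil array.

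**Figure D2:**
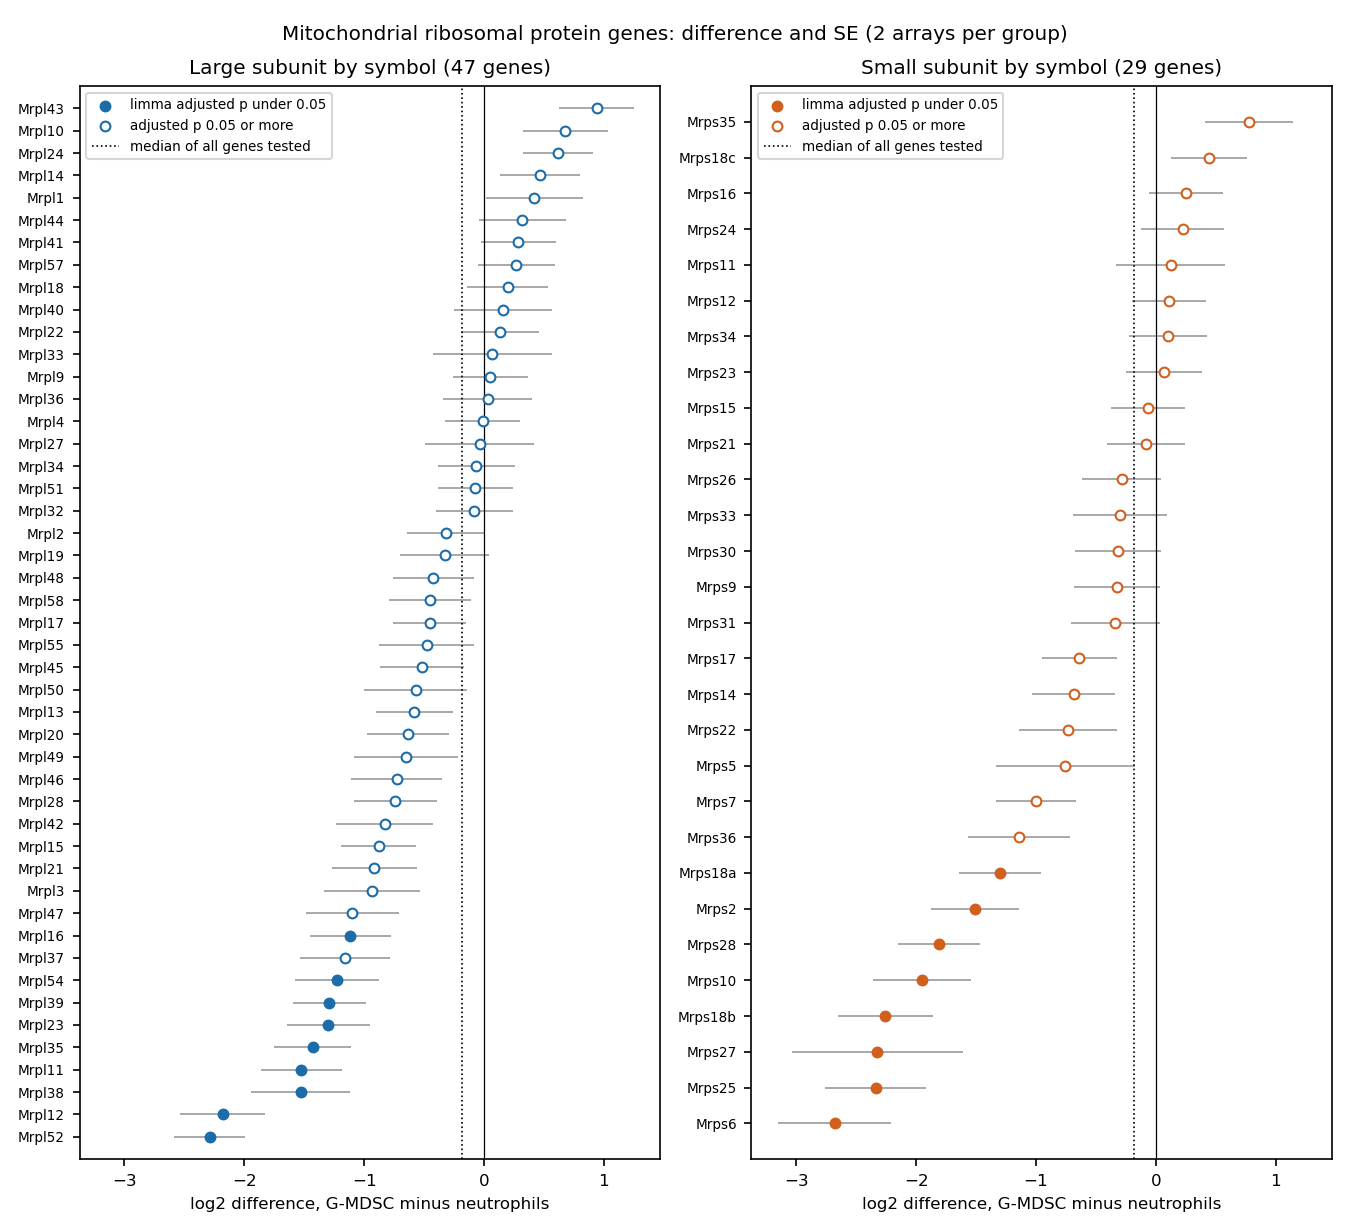
Log2 difference of each of the 76 members, G-MDSC minus neutrophils, with limma's moderated SE (2 arrays per group). Large subunit genes (47) are on the left and small subunit genes (29) on the right, by symbol. Filled points passed limma's threshold of 0.05 after adjustment; these 9 large and 8 small subunit genes all lie below -1, and the dotted line is the median of all genes tested, -0.18.

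The small subunit held the largest falls. Of its 29 genes 8 (27.6%) were lower and 0 higher, and the median was -0.34. Of the 47 large subunit genes 9 (19.1%) were lower and 0 higher, and the median was -0.45. The difference between the subunits was not tested, and the order of their medians depended on the arrays used. Placed by structure, 10 of 49 large and 7 of 26 small subunit genes were lower. Without G-MDSC replicate 1 the lower genes were 3 large and 5 small, without G-MDSC replicate 2 they were 2 and 4, and without neutrophils replicate 1 they were 23 and 14. The medians of the small and large subunits were -0.60 and -0.44 without G-MDSC replicate 1, -0.56 and -0.36 without G-MDSC replicate 2, and -0.69 and -0.67 without neutrophils replicate 1. Without neutrophils replicate 2 they were -0.23 and -0.28. The small subunit median was thus the lower one in 3 of these 4 cases, the reverse of the order with all arrays. Differences below -1 were found for 9 of 29 small and 11 of 47 large subunit genes, and above 1 for 0 of either. Of all 13139 genes tested, 2438 were below -1 and 1588 above 1.

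Mrps6, a counterpart of a bacterial small subunit protein, had signals of 60.4 and 46.4 on the G-MDSC arrays and 384 and 474 on the neutrophil arrays. The G-MDSC replicate 2 signal lay below that array's 40th percentile of 52.6. The log2 difference was -2.68 ± 0.47 (limma's moderated SE, n = 2 arrays in each group, limma adjusted p = 0.00333). That is a fold of 6.41, and the other probe set of Mrps6 gave -2.52. Mrps25, a mitochondria-specific protein, had signals of 203 and 90.7 against 731 and 781, a difference of -2.34 ± 0.42. All 4 arrays kept the groups apart for both genes, although a second kept probe set of Mrps25 gave only -0.79. Mrps27, a pentatricopeptide repeat protein, had signals of 12.8 and 60.9 against 194 and 249, and the first of these was below its array's 40th percentile of 45.7. Its difference was -2.32 ± 0.71 (limma adjusted p = 0.0474), or -1.62 without G-MDSC replicate 1 and -3.03 without G-MDSC replicate 2, and it did not pass in either case. Mrps27 thus rested on dim signals that differed between the G-MDSC arrays.

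Mrps10, a counterpart of a bacterial protein of the small subunit head, had signals of 225 and 132 on the G-MDSC arrays and 561 and 915 on the neutrophil arrays. Its log2 difference was -1.95 ± 0.41. Mrps28 had signals of 485 and 388 against 1271 and 1921, a difference of -1.81 ± 0.34. Both neutrophil arrays exceeded both G-MDSC arrays for each gene. Mrps2, a counterpart of a bacterial small subunit protein, had signals of 217 and 185 against 510 and 705, a difference of -1.51 ± 0.37. Without G-MDSC replicate 2 the calls of Mrps2 (-1.40) and Mrps10 (-1.61) were lost, and without G-MDSC replicate 1 that of Mrps2 (-1.61).

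The MRPS18 family, 3 related proteins that sit in different places of the ribosome, did not all have the same sign. Mrps18b had signals of 193 and 115 on the G-MDSC arrays and 649 and 926 on the neutrophil arrays, a log2 difference of -2.26 ± 0.40 (limma adjusted p = 0.00318). Mrps18a had signals of 512 and 541 against 1054 and 1655, a difference of -1.30 ± 0.34, which did not pass without G-MDSC replicate 1 (-1.26) or replicate 2 (-1.34). Both genes were lower in both G-MDSC arrays than in any neutrophil array. Mrps18c lay the other way, with both G-MDSC arrays above both neutrophil arrays and signals of 2211 and 2681 against 1486 and 2145, but its difference of 0.44 ± 0.32 was not called (limma adjusted p = 0.386). The difference between the relatives was not tested.

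Among large subunit genes the largest fall was that of Mrpl52, a mitochondria-specific protein. Its signals were 1203 and 1331 on the G-MDSC arrays and 5965 and 6542 on the neutrophil arrays. The log2 difference was -2.29 ± 0.29 (limma's moderated SE, n = 2 arrays in each group, limma adjusted p = 0.00055), a fold of 4.89. Both neutrophil arrays exceeded both G-MDSC arrays, and all of its 4 kept probe sets were at or below -1.64. Mrpl52 and Mrps6 were also the 2 members still called when the intensity trend was left out of the variance model.

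The stalk of the large subunit, which recruits translation factors, held 2 lower genes of 3. Mrpl12, the protein of the stalk, also reported to bind the mitochondrial RNA polymerase, had signals of 380 and 361 on the G-MDSC arrays and 1325 and 2273 on the neutrophil arrays. Its log2 difference was -2.18 ± 0.35 (limma adjusted p = 0.00206). Mrpl11, at the stalk's base, had signals of 464 and 359 against 1034 and 1405, a difference of -1.52 ± 0.34, with kept probe sets from -2.57 to -1.28. Its call was lost without G-MDSC replicate 2 (-1.35). Mrpl10, which anchors Mrpl12 to the ribosome, had signals of 1794 and 2050 against 877 and 1618 and a difference of 0.68 ± 0.35 (limma adjusted p = 0.229). Without neutrophils replicate 2 the difference was 1.11 (limma adjusted p = 0.0043), and without neutrophils replicate 1 it was 0.24 (limma adjusted p = 0.536). Both G-MDSC arrays were thus above both neutrophil arrays for Mrpl10 and below them for its partners.

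Other lower large subunit genes lay in several regions of the ribosome. Mrpl38, in the central protuberance, had signals of 119 and 116 on the G-MDSC arrays and 398 and 343 on the neutrophil arrays and a log2 difference of -1.53 ± 0.41. Its probe set is of a kind that matches several transcripts, and its kept probe sets ran from -1.53 to -0.35. It was the 1 lower gene of 6 measured in that region. Mrpl23, at the peptide exit tunnel, had signals of 659 and 563 against 1173 and 1972 and a difference of -1.30 ± 0.35, the 1 lower gene of 6 at the exit. The other 5 exit genes were not called, from Mrpl47 at -1.10 ± 0.39 and Mrpl45, which helps to hold the ribosome at the inner membrane, at -0.52 ± 0.35, to Mrpl24 at 0.62 ± 0.29. Mrpl35, a counterpart of a bacterial protein, had signals of 475 and 450 against 1145 and 1416, a difference of -1.43 ± 0.32. The remaining lower genes were Mrpl39 (-1.29 ± 0.30), Mrpl54 (-1.23 ± 0.35) and Mrpl16 (-1.11 ± 0.34, limma adjusted p = 0.0457).

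These smaller falls depended on having both G-MDSC arrays. Without G-MDSC replicate 1, 9 of the 17 calls were lost, with differences from -1.62 to -1.10 (limma adjusted p = 0.0763 to 0.43), and without G-MDSC replicate 2, 11 were lost, from -3.03 to -1.02 (0.0854 to 0.358). Mrpl16, Mrpl23, Mrpl35, Mrpl38, Mrpl39 and Mrpl54 were among the lost calls both times, and all 6 kept their direction. Mrpl16 was also lost without neutrophils replicate 2 (-0.88, limma adjusted p = 0.0522).

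**Figure D3:**
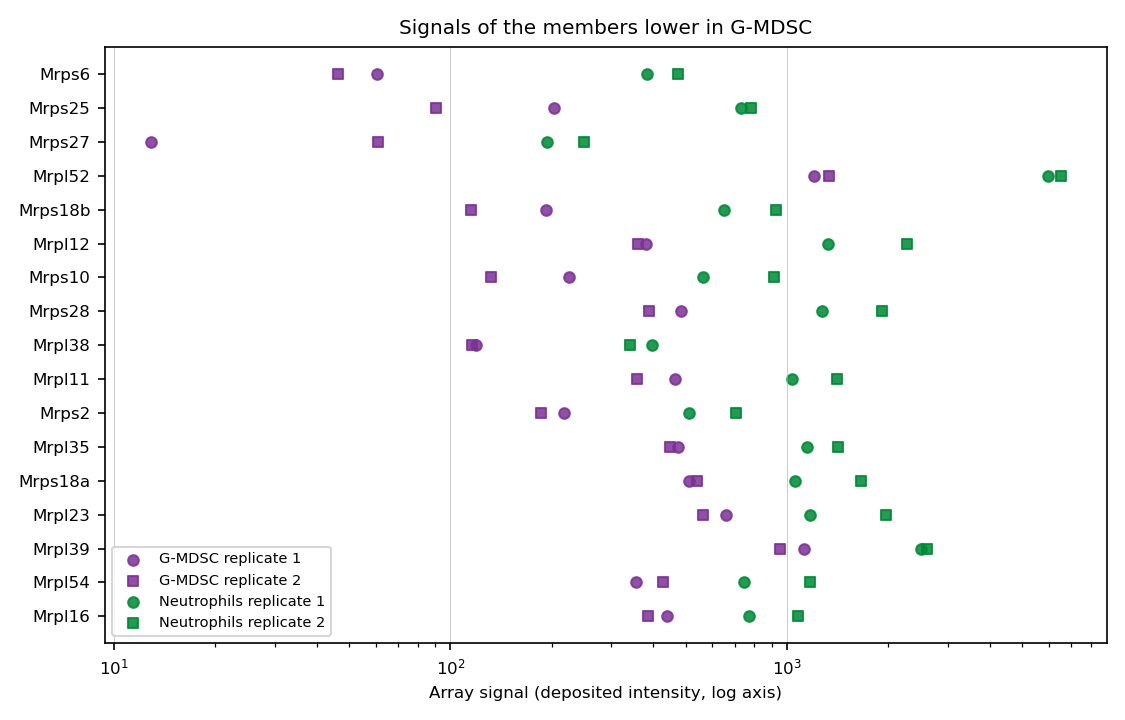
Deposited signal of the 17 lower members in each of the 4 arrays, on a log axis, with G-MDSC in purple and neutrophils in green, circles for replicate 1 and squares for replicate 2. In all 17 genes both green points lie to the right of both purple points, most closely for Mrpl16 and Mrpl54.

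The other 59 members did not pass the test. The brightest of them in the large subunit were Mrpl33, a counterpart of a bacterial protein, and Mrpl57. Mrpl33 had signals of 2927 and 5260 on the G-MDSC arrays and 2063 and 6778 on the neutrophil arrays, so the groups overlapped, and its log2 difference of 0.07 ± 0.50 became -0.79 without neutrophils replicate 1 and 0.92 without neutrophils replicate 2, passing the threshold in opposite directions. Mrpl57 had signals of 2994 and 2363 against 1840 and 2640 and a difference of 0.27 ± 0.32. In the small subunit the brightest were Mrps14 (2037 and 2222 against 2536 and 4646; -0.69 ± 0.35) and Mrps18c. Brightness here is that of a probe set and does not rank transcripts.

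At the upper end, Mrpl43, a mitochondria-specific protein, had signals of 2178 and 2711 on the G-MDSC arrays and 1137 and 1396 on the neutrophil arrays and a log2 difference of 0.94 ± 0.31 (limma adjusted p = 0.0619). Mrps35, another mitochondria-specific protein, had signals of 427 and 413 against 218 and 261, a difference of 0.78 ± 0.37. Both genes separated the groups but did not pass the threshold in the fit reported here. With all 4 arrays, Mrpl43 did pass under the replicate block (0.94, limma adjusted p = 0.0168) and with low signals set to a floor (0.95, limma adjusted p = 0.0478).

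Several members of known role in translation were near 0. Mrps12, at the decoding centre, was at 0.11 ± 0.31, with signals of 1103 and 978 on the G-MDSC arrays and 910 and 1017 on the neutrophil arrays. Mrps34, which stabilises the small subunit RNA, was at 0.10 ± 0.32 and Mrps16, a counterpart of a bacterial assembly protein, at 0.25 ± 0.31. Mrpl44, a ribonuclease-like protein, was at 0.32 ± 0.36 and Mrpl41, a mitochondria-specific protein, at 0.29 ± 0.31. These 5 differences were smaller than their moderated SE. Mrpl3, near the catalytic centre, was at -0.94 ± 0.40 (limma adjusted p = 0.144), or -1.49 without neutrophils replicate 1, when it was called, and -0.39 without neutrophils replicate 2 (limma adjusted p = 0.503). Mrps22 was at -0.73 ± 0.41 and Mrps30 at -0.32 ± 0.36. Just outside the threshold on the lower side lay Mrpl37 (-1.16 ± 0.37, limma adjusted p = 0.0564) and, just inside it, Mrps27 and Mrpl16.

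Lower members were found among both old and newer proteins of the ribosome. Of 45 members with a bacterial counterpart 10 (22.2%) were lower, with a median of -0.33, and of 29 mitochondria-specific members 6 (20.7%) were lower, with a median of -0.45. The difference was not tested. Without G-MDSC replicate 1 the numbers were 5 and 2, without G-MDSC replicate 2 they were 3 and 2, and without neutrophils replicate 1 they were 22 and 13. Mrps28, one of the 2 genes left unclassed, was the remaining lower member.

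Probe sets of the same gene disagreed for some members. Of 35 members with over 1 kept probe set, the log2 differences had both signs in 10 and spanned over 1 in 9. The widest were Mrps5, with 4 kept probe sets from -2.66 to -0.75, Mrpl49, from -0.65 to 0.93, Mrps25, from -2.34 to -0.79, Mrpl51, from -1.57 to -0.07, and Mrpl48, from -1.15 to 0.25. Mrpl15 ran from -1.45 to -0.35 and Mrpl44 from 0.25 to 1.26, both without a change of sign. The signs were mixed with a span under 1 in Mrpl9, Mrpl33, Mrpl57, Mrps9, Mrps14, Mrps15, Mrps21 and Mrps23. Among the 17 lower genes, 8 had over 1 kept probe set, and in all 8 every kept probe set lay below 0. Probe sets ending in _s_at or _x_at, a kind that can also match other genes, represented 10 members, Mrps6 and Mrpl38 among the lower ones. Those ending in _a_at, which can match several transcripts of 1 gene, represented 23, with Mrpl35, Mrpl39, Mrpl52 and Mrps18b among the lower ones.

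Parts of the mitochondrial ribosome with other names were not called. Of 4 such subunits tested, 0 were called, although all had both G-MDSC arrays below both neutrophil arrays. For Ptcd3 this separation was nearly a tie, with 377.5 in G-MDSC replicate 1 and 378.2 in neutrophils replicate 1. Dap3, a GTP-binding small subunit protein, had signals of 1210 and 1465 on the G-MDSC arrays and 1832 and 2165 on the neutrophil arrays, a log2 difference of -0.58 ± 0.31. The log2 difference of Chchd1 was -1.10 ± 0.42 (limma adjusted p = 0.101), or -1.75 without neutrophils replicate 1 and -0.44 without neutrophils replicate 2. Without neutrophils replicate 1, 3 of the 4 subunits were lower, Chchd1 among them, and without neutrophils replicate 2, 0 were. By an unadjusted p under 0.05, 2 of the 4 passed.

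The genes that assemble the mitochondrial ribosome were mixed. Of 25 assembly and rRNA modification genes tested, 1 was lower and 2 were higher in G-MDSC, with a median of -0.28. Of all genes, 8.05% were lower and 8.3% higher. Fastkd2, an RNA-binding protein needed for the large subunit, had signals of 60.1 and 51.1 on the G-MDSC arrays and 365 and 401 on the neutrophil arrays, a log2 difference of -2.48 ± 0.48 (limma adjusted p = 0.00527). Ddx28, a helicase that acts on the large subunit, went the other way, with signals of 1383 and 2988 against 689 and 541 and a difference of 1.71 ± 0.39. The log2 difference of Ddx28 was 1.16 without G-MDSC replicate 2 and was then not called. Ngrn, which works with the large subunit RNA, was higher by 1.54 ± 0.37. The log2 difference of Ngrn was 1.49 without G-MDSC replicate 1 and 1.60 without replicate 2, and neither was called. Without neutrophils replicate 1 the median of the list was -0.23, against -0.35 over all genes. Without neutrophils replicate 2 it was 0.002, against 0.03.

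Translation factors of mitochondria included more lower genes. Of 13 tested, 5 were lower (38.5%) and 0 higher, against 8.05% and 8.3% of all genes. The median was -0.83, and 9 of the 13 lay below 0. Mtif3 (1.73 ± 0.70) and Oxa1l (1.20 ± 0.41) lay the other way, with both G-MDSC arrays above both neutrophil arrays. They were not called (limma adjusted p = 0.121 and 0.0711), and Mtif3 was dim in neutrophils (24.9 and 58.2). Tsfm and Tufm, the elongation factor pair that brings tRNA to the ribosome, were at -1.77 ± 0.42 and -1.55 ± 0.40. Tufm had signals of 213 and 127 on the G-MDSC arrays and 448 and 592 on the neutrophil arrays. Lrpprc and Slirp, partners that stabilise mitochondrial mRNA, were at -1.31 ± 0.39 and -1.30 ± 0.34, and Mrrf, the ribosome recycling factor, at -1.27 ± 0.38. None of the 5 was called without G-MDSC replicate 1 or without G-MDSC replicate 2. Under median scaling and quantile normalization the list had 2 and 3 lower and 2 higher, and without neutrophils replicate 2 it had 5 lower and 2 higher.

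Other genes around mitochondrial translation were largely uncalled. Of 17 mitochondrial aminoacyl-tRNA synthetase and amidotransferase genes, 0 were called (limma; 3 at an unadjusted p under 0.05), with a median of -0.50. The brightest were Cars2, the cysteine enzyme, at 0.56 ± 0.36, and Rars2, the arginine enzyme, at -0.26 ± 0.37. Of 22 genes for mitochondrial DNA maintenance, transcription and RNA processing 0 were called (1 at an unadjusted p under 0.05), with a median of -0.09, which was above 0 under quantile normalization (0.11) and median scaling (0.14). Tfam, which packages mitochondrial DNA, was at 0.16 ± 0.35 and Polrmt, the mitochondrial RNA polymerase, at -0.41 ± 0.35. Without neutrophils replicate 1 the medians of the synthetase and transcription lists were -0.76 and -0.30, against -0.35 over all genes. Of 14 import, chaperone and content genes 5 were lower and 0 higher, with a median of -0.71, or 3 without G-MDSC replicate 1 and 1 without G-MDSC replicate 2. Hspe1 and Hspd1, the paired chaperonins of the matrix, were at -2.31 ± 0.36 and -1.73 ± 0.33.

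Of 11 regulators of nuclear genes for mitochondria, 1 was lower and 2 were higher, against 8.05% and 8.3% of all genes. Pprc1, a coactivator related to PGC-1, was at -1.59 ± 0.46, with signals of 152 and 76.6 on the G-MDSC arrays and 345 and 376 on the neutrophil arrays. Gabpa was higher by 1.05 ± 0.31, but the log2 difference of Gabpa from the median over its probe sets was 0.31 (limma adjusted p = 0.547). Max, the partner of MYC, was higher by 1.53 ± 0.43. The log2 difference of Max was 0.77 without neutrophils replicate 2 and was then not called. None of the 3 was called without G-MDSC replicate 1, and quantile normalization left 0 of the list called. Myc itself had signals of 554 and 720 against 573 and 709, with a difference of -0.01 ± 0.34, and the groups overlapped.

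Cytosolic ribosomal proteins and the respiratory chain are set beside the members here because both are close in function. Of 47 cytosolic ribosomal protein genes 4 (8.51%) were lower and 0 higher, against 8.05% and 8.3% of all genes tested. The share of lower genes was thus close to that of all genes. Their log2 median was -0.45, against -0.18 over all genes. A difference below 0 was found for 45 of the 47 (95.7%), against 71.1% of the members and 57.1% of all genes. Both G-MDSC arrays lay below both neutrophil arrays for 24 (51.1%) and above them for 0, against 51.3% and 11.8% of the members. Over all genes the shares were 32.2% and 27.3%. The cytosolic differences ran from -1.96 to 0.34, a narrower range than that of the members. The lowest were Rpl14 (-1.96 ± 0.50) and Rps27l (-1.27 ± 0.34). Of 60 genes of respiratory complexes I to IV 2 (3.33%) were lower and 2 higher, smaller shares than the 8.05% and 8.3% of all genes. Their median was -0.15, or 0.09 with 0 calls under median scaling. Of these, 37 (61.7%) were below 0, and 18 (30%) had both G-MDSC arrays below both neutrophil arrays, close to the 57.1% and 32.2% of all genes. Ndufa5 and Ndufc1, of complex I, were at -1.32 ± 0.36 and -1.25 ± 0.32, and Sdhd, of complex II, and Cox7a2l were higher by 1.13 ± 0.32 and 1.02 ± 0.29. The log2 difference of Sdhd from the median over its probe sets was 0.56, which was not called. These comparisons between lists are descriptions, and no difference between them was tested. Without neutrophils replicate 1 the medians were -0.73 (cytosolic), -0.25 (respiratory) and -0.35 (all genes). Without neutrophils replicate 2 they were -0.17, 0.05 and 0.03. With either G-MDSC array left out, fewer genes of both lists were called than with all arrays.

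**Figure D4:**
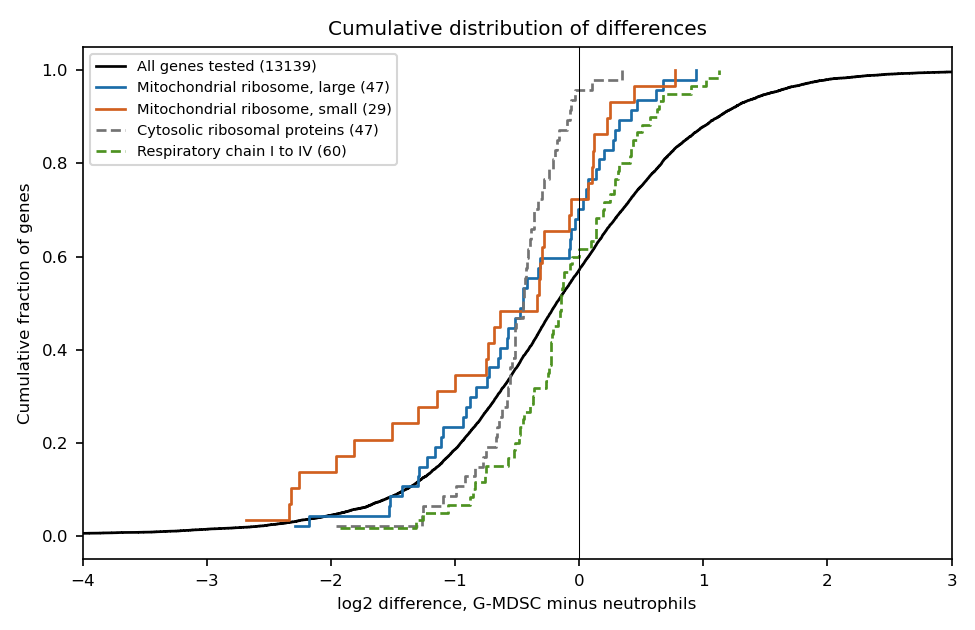
Cumulative fraction of genes against the log2 difference, G-MDSC minus neutrophils, for all 13139 genes tested (black), large and small subunit genes of the mitochondrial ribosome (blue and orange), cytosolic ribosomal proteins (grey dashes) and respiratory complexes I to IV (green dashes). The orange curve holds a larger share of genes below -1 (9 of 29) than the grey (4 of 47) or green (4 of 60). The blue holds 11 of 47 there and the black 2438 of 13139. The blue and grey medians are both -0.45.

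**Figure D5:**
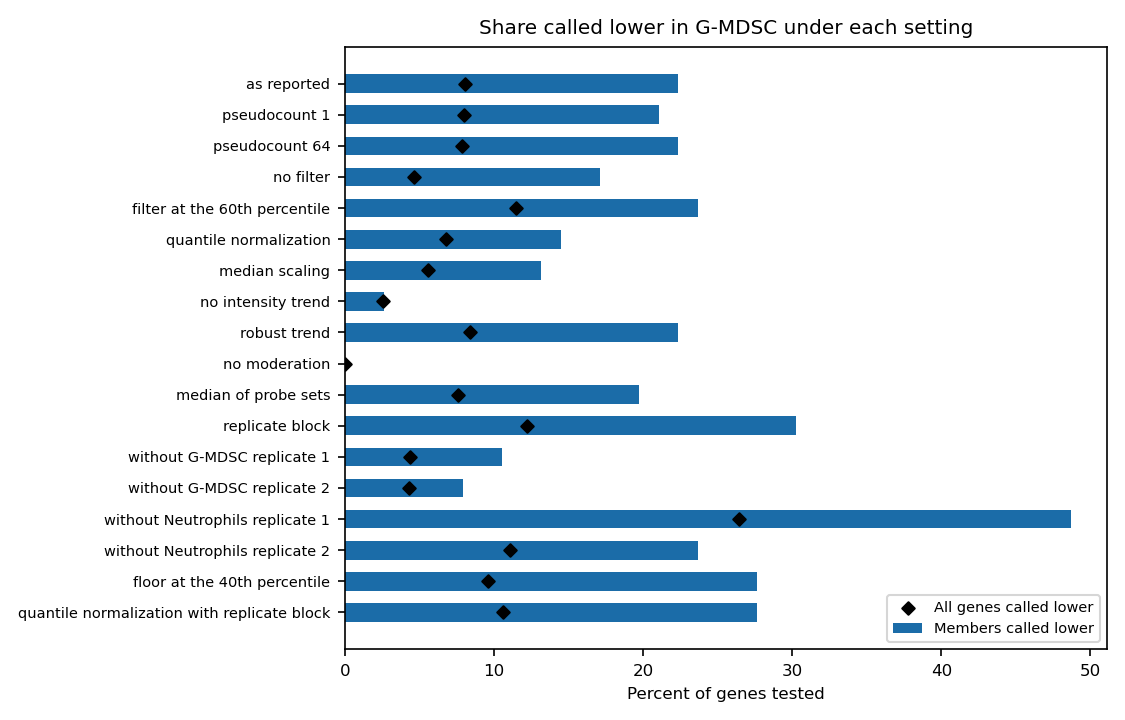
Percent of members called lower in G-MDSC (bars) and of all genes tested (diamonds) under each setting of the analysis. As reported the values are 22.4% and 8.05%, without moderation both are 0, and without neutrophils replicate 1 they are 48.7% and 26.4%.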

How the data were processed

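Total RNA of 4 samples was measured on 1 Affymetrix array each. The authors deposited linear intensities. Per the submitters' processing notes, GCOS 1.4 and MAS5 were used, and the values' mean trimmed by 2% of probe sets at each end is 500 in each array. Genes were named from the platform annotation of the arrays. Probe sets naming several genes were left out, 4 of which include an Mrpl or Mrps symbol. The small number of arrays limits precision.

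Signals were taken as log2(signal + 16), which understates changes of dim genes. Probe sets above the 40th percentile of their array in at least 2 of 4 arrays were kept, and each gene was represented by the brightest of these. R 4.3.3 with limma 3.58.1 (lmFit, eBayes with an intensity trend) fitted 13139 genes, two-sided, adjusted by Benjamini-Hochberg, threshold 0.05. Values after ± are limma's moderated SE, which draws on the variance of all genes and is not the SE of a gene's own arrays alone. Python 3.11.15 with pandas 2.3.3 made the tables. The functions were tested on simulated data in which 200 of 13139 genes were changed. The fit recovered 0% of the 2-fold changes, 37.3% of the 4-fold and 60.6% of the 8-fold, so smaller changes can be missed. An exact permutation test of 2 against 2 cannot go below 0.333, so none was used. Members, lists and tests were chosen with earlier results of these data known. Named members were the 6 largest falls or rises per subunit among called genes, the 2 brightest, the 2 most opposite to the members' median, 13 of known role, and those whose probe sets disagree. For other lists they were up to 2 called genes per direction, or the 2 brightest, and 6 fixed genes. Other genes were named after their values were seen. Alternatives covered pseudocounts, filters, scaling, variance models, probe sets, the replicate block and leaving out arrays. A floor for low signals, quantile normalization with the block, and subunits by structure were added after seeing the data.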

Additional observations from a re-analysis of the deposited data

How the results depend on the processing

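Of 76 members 17 were lower and 0 higher in G-MDSC as reported. The lower count was 11 with quantile normalization (5 large, 6 small; 6.8% of all genes were lower), 10 with median scaling (4 large; 5.57% of all genes), 2 without the intensity trend (1 large, 1 small) and 0 without moderation (limma's ordinary fit, 0 of all genes, with 20 members and 2379 genes at an unadjusted p under 0.05). Without the trend the members' share (2.63%) was close to that of all genes (2.52%). The cause was not tested. Leaving out 1 array gave 6 to 37 lower members, 2 to 23 of the large and 4 to 14 of the small subunit, and 0 to 3 higher. With the floor for low signals 21 were lower and 1, Mrpl43, higher. Other pseudocounts, filters, the robust trend and the median of probe sets gave 13 to 18 lower. Leaving out 1 array gave medians from -0.69 to -0.24 for all members, -0.67 to -0.28 for the large and -0.69 to -0.23 for the small subunit. The log2 difference of Mrpl33 turned to -0.79 without neutrophils replicate 1 and was 0.92 without neutrophils replicate 2.

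Median scaling moved the median of all genes from -0.18 to 0.05 and quantile normalization to 0.03; relative to it the members' median was -0.27 as reported, -0.27 and -0.51.

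The labels share replicate numbers 1 and 2 between the groups but do not tie the samples together. Deviations of same-numbered arrays from their group means had r = 0.24 over 13139 genes, which are not independent. With the replicate block 23 members were lower and 1, Mrpl43, higher (12.2% of all genes were lower), and all 17 were among the 23. With quantile normalization and the block together, 21 were lower.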
